A study of Mus musculus with 12 samples.

Results

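Red cells that had stayed SmoM2 negative in glands where other cells carried SmoM2 were compared with red cells of glands without Cre. The 2 groups of 4 libraries each were set against each other across 14039 expressed loci, of 20114 entries of the deposited count table that name 1 locus and 36635 entries in all. Unrecombined libraries had the genotype mT-mG/SmoM2;MMTV-Cre and were sorted as SmoM2 negative, with the red tdTomato reporter. Wild type libraries had the genotype mT-mG/SmoM2;+, so they held the reporter and the SmoM2 allele but no Cre. Another 4 libraries, called recombined, held the green EGFP and SmoM2 positive cells of the mT-mG/SmoM2;MMTV-Cre genotype, and is used here for its spread and as a reference level. Every group came from adult female mice aged 9 weeks on a mixed 129X1/SvJ, C57BL/6 and Swiss Webster background, as primary mammary epithelial cells purified by flow sorting. No label names the animal behind a library, so p-values measure the spread between these libraries, which may be technical.

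SmoM2 is an activated form of Smoothened, which relays Hedgehog signals at the membrane towards the Gli transcription factors. Hedgehog signalling is known for working between neighbouring cells, commonly from an epithelium to the fibroblasts beside it, and fibroblasts make the collagens, laminins and growth factors that surround mammary ducts. In this model the MMTV promoter drives Cre mainly in epithelium. Cells that recombine turn from red to green, so the red sort of a Cre gland was meant to leave them out. Wild type glands held no Cre to turn cells green. The purity of the red sort was not tested. A difference between the 2 red sorts in how many cells of a type were collected and one in RNA per cell cannot be told apart in these bulk libraries.

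Total counts of the 8 libraries lay between 21603825 and 34779433. The share of mitochondrial counts was 14.7% to 21.2% in wild type and 13.1% to 27.8% in unrecombined libraries (two-sided exact permutation test, n = 4 and 4, p = 0.771, where 0.0286 is the smallest p possible). Both libraries numbered 2 stood apart from the others of their group. Salivary gland transcripts took 4.29% of the counts of unrecombined 2 and 2.06% of wild type 2, and the inducible heat shock gene Hspa1a had 1759 and 2102 CPM there (CPM are counts relative to the scaled library total) against 41.6 to 62.2 CPM in the other 6. Recombined 2 carried both marks as well, with 1370 CPM of Hspa1a. Wild type 2 and unrecombined 2 also lay farthest out on the first principal component of the 8 libraries, which held 30.8% of the variance. For many of the lists, counts of members are therefore given below with and without both libraries numbered 2.

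The labelled cell type was checked against its markers. The 22 tested pan-epithelial genes, such as Epcam, Cdh1 and Krt8, summed to between 4892 and 7952 CPM in wild type and between 4267 and 6954 CPM in unrecombined libraries. Epcam, the epithelial adhesion molecule, had 1394, 1847, 1508 and 1293 CPM in wild type and 1208, 1784, 1698 and 1121 CPM in unrecombined libraries 1 to 4, and the groups overlapped. Markers of other cells were present in both red sorts. The 30 tested fibroblast genes summed to 2525 to 5169 CPM in wild type libraries, to 7991 to 10749 CPM in unrecombined ones and to 550.2 to 1444 CPM in the recombined group. The red groups did not overlap in this sum. The 19 endothelial genes summed to between 237.1 and 412.5 CPM in wild type and between 287.5 and 571.9 CPM in unrecombined libraries, and the 15 macrophage and dendritic genes to between 72.1 and 207.2 and between 55.4 and 126.2 CPM.

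**Figure D1:**
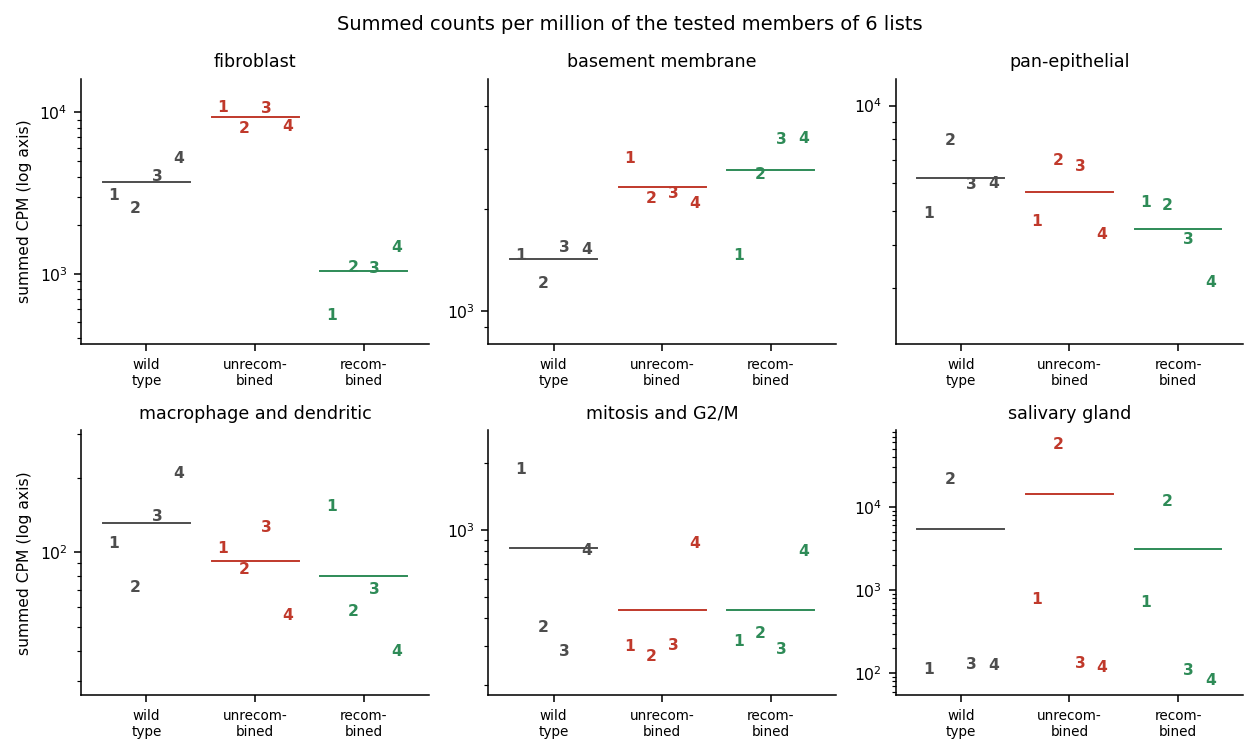
Summed CPM (log axis) of the tested members of 6 gene lists in each of 12 libraries; digits are library numbers, colors the 3 groups and lines the group means. The 4 unrecombined libraries lie above all 4 wild type libraries for fibroblast and for basement membrane genes, and overlap them for the other 4 lists.

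No locus passed an adjusted p of 0.05 in the quasi-likelihood test of edgeR, 0 of 14039 or 0% of the loci tested. The smallest adjusted p was 0.128, shared by several loci. At an unadjusted p under 0.05, 376 loci were higher (2.68%) and 165 were lower (1.18%) in unrecombined libraries. In 402 loci all 4 unrecombined libraries lay above all 4 wild type libraries (2.86%), and in 218 all 4 lay below (1.55%). The median log2 difference over all loci was -0.0021, with quartiles of -0.22 and 0.22, and its median standard error (SE) was 0.37. Other tests of the same counts called some loci, and most of those were higher in unrecombined libraries. The Wald test of DESeq2 called 78 of 13108 loci (0.595%), of which 72 were higher. Limma-voom called 18 (0.128%) and limma-voom with library weights 61 (0.435%). The edgeR test on the 8 red libraries alone called 8 of 13536 (0.0591%).

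The loci that DESeq2, limma-voom and the edgeR test of 8 libraries each called were 6 in number, namely Itm2a, Postn, Svep1, Thy1, the entry AK170106+Lpl and, as the single lower locus, Tnn. The 250 bases before the start site are shown for Itm2a, Tnn, Nid1 and Svep1, which are 4 of the loci with the smallest p and have 1 RefSeq promoter entry each. Coordinates are those of GRCm38.p6, and the counts were made on mm9. Of the loci tested, 9580 matched a promoter entry by symbol. The motifs GACCACCCA of the Gli factors, TATAAA and CCAAT were searched on both strands. Capitals mark a match, which on the other strand reads ATTGG or TTTATA.
Itm2a (chrX:107403361-107403610, minus strand): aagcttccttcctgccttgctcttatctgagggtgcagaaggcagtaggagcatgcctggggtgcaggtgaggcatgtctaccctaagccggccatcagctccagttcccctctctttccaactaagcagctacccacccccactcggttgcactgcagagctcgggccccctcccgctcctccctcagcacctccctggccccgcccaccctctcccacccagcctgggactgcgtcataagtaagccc
Tnn (chr1:160153576-160153825, minus strand): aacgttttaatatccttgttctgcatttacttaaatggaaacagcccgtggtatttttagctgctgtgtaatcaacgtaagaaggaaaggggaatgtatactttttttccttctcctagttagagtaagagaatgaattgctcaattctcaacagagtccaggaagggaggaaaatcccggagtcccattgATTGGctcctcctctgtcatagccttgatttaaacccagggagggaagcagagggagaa
Nid1 (chr13:13437352-13437601, plus strand): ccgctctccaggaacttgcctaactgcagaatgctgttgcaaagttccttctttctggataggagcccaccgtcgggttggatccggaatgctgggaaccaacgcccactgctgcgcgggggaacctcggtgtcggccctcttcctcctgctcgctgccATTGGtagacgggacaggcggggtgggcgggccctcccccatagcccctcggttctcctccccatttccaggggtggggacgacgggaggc
Svep1 (chr4:58206597-58206846, minus strand): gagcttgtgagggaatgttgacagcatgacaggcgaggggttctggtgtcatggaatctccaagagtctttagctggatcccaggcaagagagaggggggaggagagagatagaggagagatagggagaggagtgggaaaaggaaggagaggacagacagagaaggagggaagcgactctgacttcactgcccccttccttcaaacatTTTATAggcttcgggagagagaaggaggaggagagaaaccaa
Tnn and Nid1 each held CCAAT and Svep1 held TATAAA, all in the opposite strand, and Itm2a held none of these letters. Over 32851 promoter entries of the same length, CCAAT was present in 33.8%, TATAAA in 12.4% and GACCACCCA in 0.225%. No match to GACCACCCA says only that these letters are not in this window.

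Itm2a, a membrane protein of connective tissue and of developing T cells (mm9 chromosome X, from 104592533), had 7.46, 9.02, 12.3 and 13.9 CPM in wild type libraries 1 to 4. Unrecombined libraries 1 to 4 had 32.7, 29.3, 31.9 and 36.1 CPM, all above every wild type library and within a narrow range. The log2 difference was 1.60 ± 0.248 (SE), with an adjusted p of 0.128 in edgeR and 6.74e-07 in DESeq2. Recombined libraries had between 3.61 and 5.57 CPM, the lowest of the 3 groups. Svep1, a large secreted adhesion protein (chromosome 4, from 58055667), had 19.5, 25.4, 28.7 and 26.8 CPM in wild type and 90.3, 50.3, 71.7 and 62.6 CPM in unrecombined libraries. Here too the groups did not overlap, and the difference was 1.45 ± 0.268 (adjusted p = 0.141 in edgeR, 0.00029 in DESeq2). The recombined mean was 2.43 ± 0.905 CPM (SD, n = 4).

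Among the lists with at least 10 tested members, the fibroblast list had the highest median. All 30 of its members were tested, and each had an estimate at or above 0, with a median log2 difference of 1.19 against -0.0021 over all loci. At an unadjusted p under 0.05, 18 of 30 were higher and 0 lower, where the share over all loci was 2.68% and 1.18%. The same shares over all loci stand beside the counts of every list below. In 17 of 30 the groups did not overlap (2.86% over all loci). DESeq2 called 11 of the 30, limma-voom 5 and its weighted form 14. Without both libraries numbered 2, 16 of 30 were higher, with a median of 1.10, against 1.79% of all loci. That setting, like the next, was chosen after the data were seen. Without all 5 libraries that held salivary transcripts, which leaves unrecombined 3 and 4 against wild type 1, 3 and 4, it was again 16 of 30, with a median of 0.93.

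The list holds 7 structural collagens whose groups did not overlap. Col3a1, the fibrillar collagen of loose connective tissue, had 502, 313, 542 and 989 CPM in wild type and 1870.3, 1314, 2302 and 1523 CPM in unrecombined libraries. The lowest unrecombined library was above the highest wild type library, wild type 4, and the difference was 1.58 ± 0.325 (edgeR adjusted p = 0.215). Col1a1 and Col1a2, the chains of type I collagen, had differences of 1.48 and 1.53 without overlap, with edgeR adjusted p of 0.512 and 0.46. Col5a2 (1.64), Col5a1 counted with BC152372 (1.22), Col6a1 (1.19) and Col6a2 (1.20) had no overlap either. Recombined libraries had lower means of all 7 collagens, and Col3a1 had 19.8 ± 7.42 CPM (SD, n = 4) and Col1a1 6.83 CPM on average.

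The groups also did not overlap for Pdgfra, Thy1 and Postn of this list. Pdgfra, a receptor of platelet-derived growth factor and a standard fibroblast marker, had 100.2, 66.6, 147 and 147 CPM in wild type and 528, 307, 247 and 316 CPM in unrecombined libraries. The difference was 1.60 ± 0.338 (edgeR adjusted p = 0.233), with unrecombined 1 the highest library. Thy1, a surface glycoprotein, had 21.8, 19.2, 13.7 and 13.5 against 46.5, 52.4, 69.4 and 43.3 CPM, a difference of 1.63 ± 0.371 (adjusted p = 0.326 in edgeR, 0.00615 in DESeq2). Postn, a matrix protein that binds collagen, averaged 864 ± 148 CPM in wild type and 2070 ± 365 CPM in unrecombined libraries (SD, n = 4). The members with the smallest differences were S100a4 (0.00), Gsn (0.47), Fap (0.48) and Pcolce (0.53), whose groups overlapped.

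**Figure D2:**
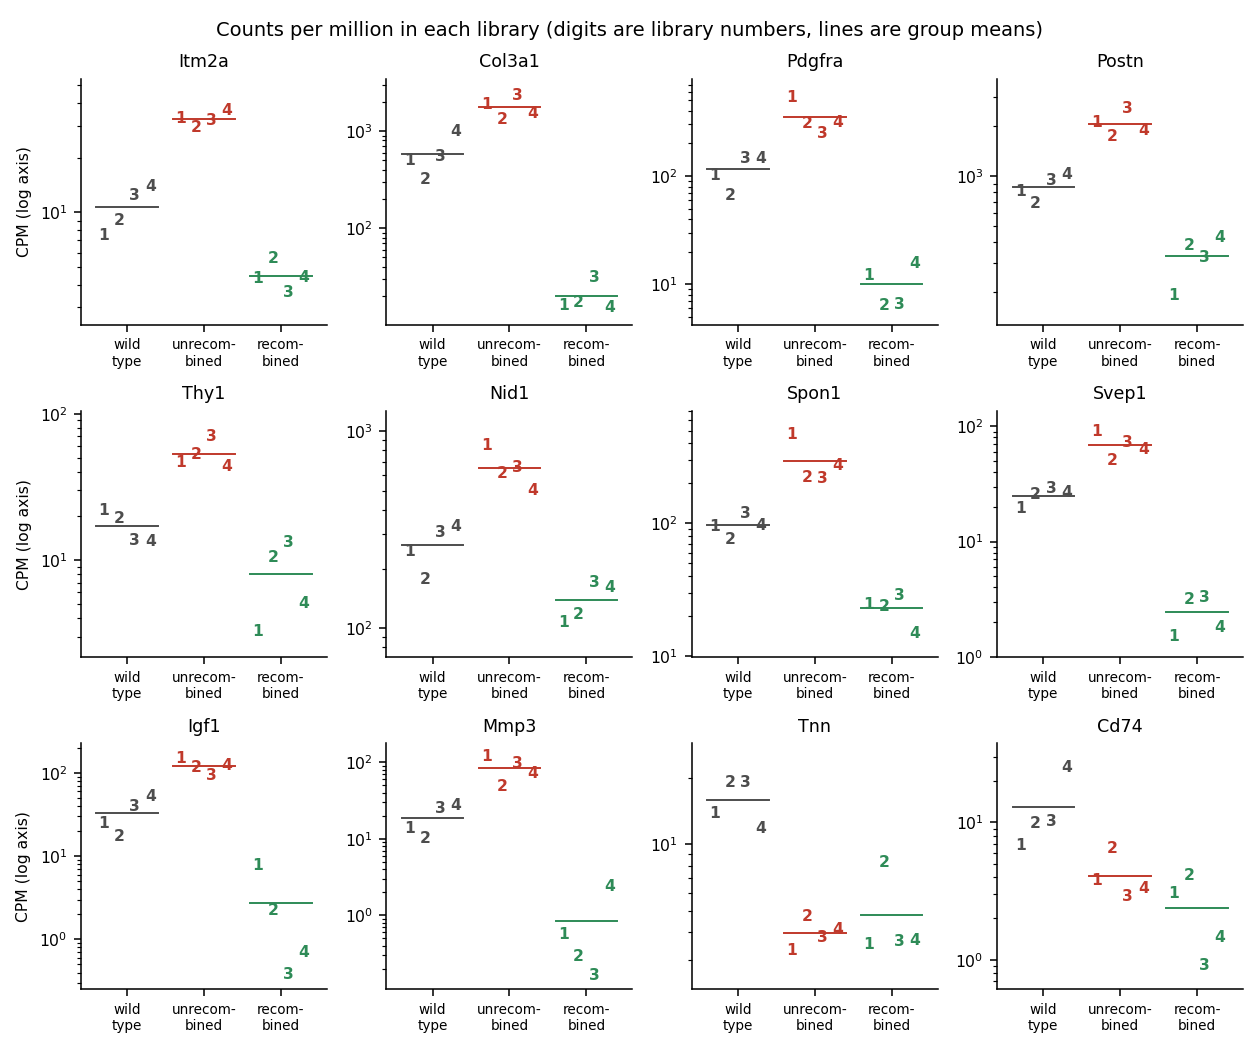
CPM (log axis) of 12 loci in each library; digits are library numbers and lines group means. For the first 10 loci every unrecombined library lies above every wild type library, and for Tnn and Cd74 every one lies below; recombined libraries are lowest for the first 10.

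Mammary fibroblasts are often divided into cells of the parenchyma close to the ducts and adventitial cells around vessels. Of 14 parenchymal fibroblast genes 7 were higher at an unadjusted p under 0.05 and 0 lower (median 0.98), against 2.68% and 1.18% of all loci. Of 14 adventitial genes 2 were higher and 0 lower (median 0.71). Without both libraries numbered 2 these counts were 3 and 1. The difference between these lists was not tested, and several genes serve both. Lpl, the lipoprotein lipase, counted with AK170106, had 35.3, 37.3, 54.3 and 50.9 CPM in wild type and 154, 129, 124 and 119 CPM in unrecombined libraries. The groups were far apart relative to their spread (1.56 ± 0.276, adjusted p = 0.128 in edgeR and 9.87e-05 in DESeq2). Apod, a lipocalin (1.60 ± 0.339), Penk, the enkephalin precursor counted with AK043612 (1.91 ± 0.532), and Inmt, a methyltransferase (0.99 ± 0.349), did not overlap either (edgeR adjusted p = 0.233, 0.565 and 1). Lpl is also an adipocyte gene. Of the 8 adipocyte genes tested, Lpl was the single one with an unadjusted p under 0.05, Pparg had 0.90 ± 0.781 and Fabp4 0.85 ± 0.522, and whether adipocytes took part in the Lpl value was not tested. Summed with Lpl included, the 8 had 101.9 to 199 CPM in wild type and 228 to 349 CPM in unrecombined libraries. Because Lpl adds 119 to 154 CPM to the unrecombined sums, they do not show the other adipocyte genes apart. Cxcl14 counted with Bmac (0.01) and Cxcl12 (0.17), chemokines on the same parenchymal list, showed overlapping groups.

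Of 24 tested matrix-modifying enzymes, 8 were higher at an unadjusted p under 0.05 and 0 lower, against 2.68% and 1.18% of all loci. The median was 0.88 and every estimate was above 0. Without both libraries numbered 2, 7 of 24 were higher. Mmp3, stromelysin, which cleaves basement membrane and other matrix proteins, had 13.7, 10.1, 24.8 and 27.1 CPM in wild type and 118, 47.7, 97.2 and 72.3 CPM in unrecombined libraries. Its difference of 2.15 ± 0.566 (edgeR adjusted p = 0.512) was the largest of the list, and recombined libraries had no more than 2.35 CPM. Mmp2, a gelatinase (1.46), Mmp19 counted with 1110012D08Rik (1.51), Adamts5, an aggrecanase (1.07), and the collagen cross-linkers Lox, counted with AK084265 (1.90), and Loxl2 (1.12) were without overlap. The membrane-bound Mmp14 (0.12) and the inhibitor Timp1 (0.11) overlapped.

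Of 23 tested basement membrane genes, 8 were higher at an unadjusted p under 0.05 and 0 lower (median 0.45), against 2.68% and 1.18% of all loci. Without both libraries numbered 2, 4 were higher, against 1.79% of all loci. The count was 3 without unrecombined 1 and 5 without wild type 2. Nid1, which links laminin to type IV collagen, had 245, 177, 305 and 328 CPM in wild type and 845, 612, 651 and 498 CPM in unrecombined libraries, with no overlap (1.30 ± 0.227, adjusted p = 0.128 in edgeR and 0.00029 in DESeq2). Laminin alpha 2, a chain typical of mesenchymal cells, had 100, 62.7, 145 and 125 against 526, 254, 256 and 280 CPM (Lama2, 1.60 ± 0.668, edgeR adjusted p = 1). Lama4 (0.78), Lamb1 counted with Lamb1-1 (0.81) and Col4a2 (0.90) did not overlap. The epithelial chains Lama3 (-0.34) and Lama5 (-0.19) had estimates below 0 with overlapping groups, and Lamc1, shared by most laminins, had 0.45 ± 0.209 with overlap. Lama2 had 3.67 CPM on average in recombined libraries, while Lama3 averaged 101 CPM in wild type, 80.1 CPM in the unrecombined group and 490 CPM in the recombined group.

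Of 24 tested matricellular proteins and glycoproteins, 10 were higher and 1 lower at an unadjusted p under 0.05 (median 0.57), against 2.68% and 1.18% of all loci. Without both libraries numbered 2, 8 were higher and 1 lower. The lower one at that p was Tnn, tenascin N, a matrix glycoprotein (chromosome 1, from 162015162), with 13.8, 19.0, 19.1 and 11.8 CPM in wild type and 3.30, 4.71, 3.77 and 4.11 CPM in unrecombined libraries. The difference was -2.0 ± 0.345 (adjusted p = 0.128 in edgeR, 3.53e-05 in DESeq2), and recombined libraries had a similar level to unrecombined ones, 4.75 ± 2.33 CPM (SD, n = 4). The related tenascin C, counted with 3 transcript names, differed by 0.41 ± 0.389. Spon1, F-spondin, had 95.0, 75.1, 118 and 96.8 CPM in wild type and 467, 221, 216 and 274 CPM in unrecombined libraries (1.61 ± 0.265). Sparc, a collagen-binding protein, was higher without overlap at 1.14 ± 0.295 (edgeR adjusted p = 0.46). Fibronectin, Fn1 counted with AK049041 and Gm15456, had 1.47 ± 0.399 (0.537) and Thbs2 1.60 ± 0.426 (0.514). Spp1, osteopontin, had 466, 619, 1605 and 575 CPM in unrecombined libraries against 141, 302, 256 and 212 CPM in wild type, so that unrecombined 3 stood far above the others.

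Of 19 genes listed for epithelial-mesenchymal transition, 9 were higher at an unadjusted p under 0.05 and 0 lower (median 0.72). The shares over all loci were 2.68% and 1.18%, and 7 of 19 were higher without both libraries numbered 2. The 9 include Sparc, Fn1, Mmp2 and Vim, and fibroblasts express the mesenchymal members too. Tcf4 (0.95 ± 0.167), Cdh11 (1.44 ± 0.366), Zeb1 (1.01 ± 0.371) and Zeb2, counted with Gm13476 and mKIAA0569 (0.89 ± 0.336), had no overlap (edgeR adjusted p = 0.128, 0.46, 1 and 1). Cdh1, the epithelial cadherin, counted with AK041755, differed by -0.09 ± 0.236, and Snai2 by -0.01 ± 0.446. Whether the fibroblast level took part in these values was not tested.

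**Figure D3:**
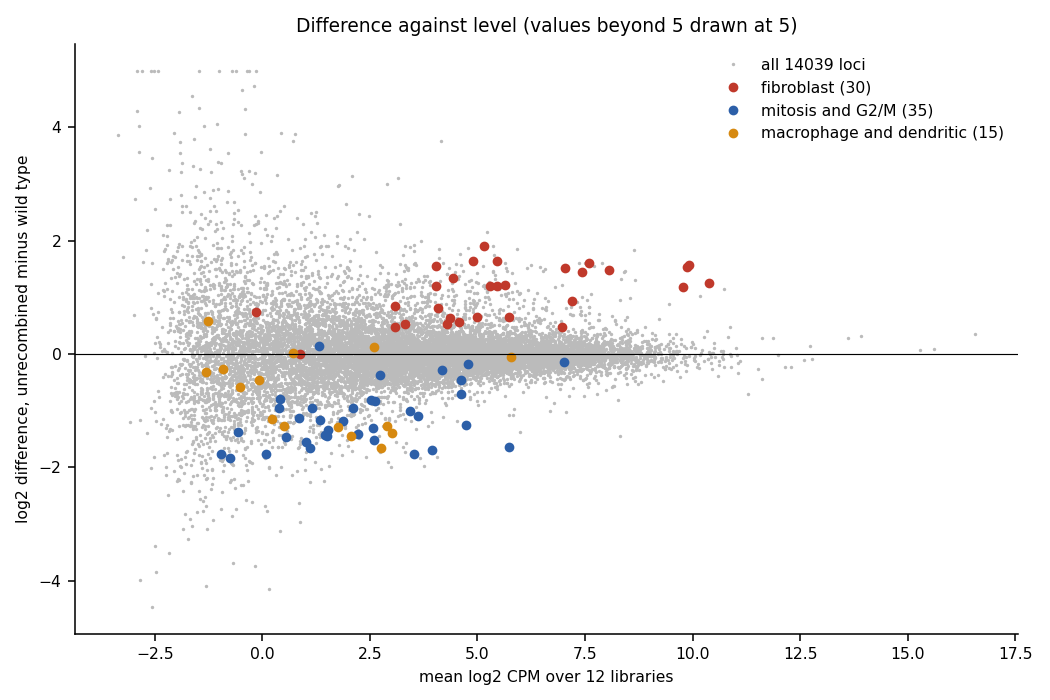
Log2 difference between unrecombined and wild type libraries (vertical axis, values beyond 5 drawn at 5) for 14039 loci, with 3 lists in color. The horizontal axis is the mean log2 CPM of the 8 red libraries, although its label reads 12 libraries. Fibroblast genes lie at or above 0 at every level, and 34 of 35 mitosis genes lie below 0.

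Of 52 tested growth factors made by stroma or epithelium, 3 were higher and 2 lower at an unadjusted p under 0.05 (median 0.05). The shares over all loci were 2.68% and 1.18%. Without both libraries numbered 2, 1 was higher and 0 lower. Igf1, the insulin-like growth factor made by mammary fibroblasts, had 24.4, 17.0, 39.8 and 51.6 CPM in wild type and 150, 117, 93.8 and 121 CPM in unrecombined libraries. The groups did not overlap (1.86 ± 0.663, adjusted p = 1 in edgeR, 0.632 in DESeq2 and 0.0328 in limma-voom). Fgf10, a stromal factor of branching, had 2.11, 4.68, 1.66 and 0.86 against 6.05, 15.9, 5.25 and 6.99 CPM (1.87 ± 1.05). The EGF family ligand epiregulin, Ereg counted with AK019057, differed by 1.31 ± 0.471. Il6, a cytokine, differed by 1.05 ± 0.431 with overlap. Tgfb1 and Pdgfb had estimates below 0, at -1.13 ± 0.416 and -0.84 ± 0.372, with overlap. Hgf (0.51), Wnt5a (-0.40), Cxcl12 (0.17), Fgf7 (-0.24) and Tgfb3 (-0.03), other factors of the stroma, overlapped.

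The Hedgehog pathway was followed from receptor to targets. Smo, counted with AK053708, had 35.2, 18.7, 31.2 and 28.2 CPM in wild type and 28.9, 26.8, 29.0 and 36.8 CPM in unrecombined libraries, which overlap (0.10 ± 0.215, edgeR adjusted p = 1). Ptch1, the receptor and a direct target, had 38.1, 36.8, 34.5 and 35.9 CPM in wild type, a range far narrower than the 41.0, 52.0, 24.8 and 61.3 CPM of unrecombined libraries (0.30 ± 0.402, edgeR adjusted p = 1). Unrecombined 3 was below and the other 3 above every wild type library. Hhip, a ligand-binding inhibitor and target, had 1.98, 1.86, 2.92 and 5.52 against 3.98, 4.37, 5.35 and 8.93 CPM (0.88 ± 0.491). Gli1, counted with Arhgap9, had 3.85, 5.50, 2.23 and 2.69 against 2.14, 7.20, 7.44 and 6.86 CPM (0.73 ± 0.431), with unrecombined 1 the lowest of the 8. The edgeR adjusted p of both was 1, and the groups overlapped. Recombined libraries had a mean of 434 CPM of Ptch1, 38.9 of Hhip and 21.3 of Gli1.

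Of 29 tested ligands and components of the pathway, 1 was higher and 0 lower at an unadjusted p under 0.05 (median 0.05). That one was Scube1, a secreted protein (1.21 ± 0.511, edgeR adjusted p = 1). The co-receptors Gas1 (0.99), Boc (0.50) and Cdon (-0.22) and the factors Gli2 (0.69) and Gli3 (-0.25) overlapped. Of 25 tested Hedgehog targets, 5 were higher and 0 lower (median 0.27), against 2.68% and 1.18% of all loci. Without unrecombined 2, or without both libraries numbered 2, 3 were higher. The 5 were Spp1, Sfrp1, Sfrp2 counted with AK137033, Prdm1 and Ccnd2 counted with CYL2. Sfrp1 and Sfrp2, secreted Wnt antagonists, had 1.07 ± 0.302 and 1.32 ± 0.415 without overlap, and are also expressed by fibroblasts. Prdm1, a transcriptional repressor, had 0.89 ± 0.338 with overlap, and Ccnd2, a D cyclin, 0.97 ± 0.398 without. The edgeR adjusted p was 0.582 for Sfrp1, 0.786 for Sfrp2 and 1 for Prdm1 and Ccnd2. Bmp4 counted with Gm15217 (0.27) and Vegfa (-0.16) overlapped.

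G protein subunits were examined because the study is about Gnai2, the inhibitory subunit its title names. Gnai2 had 159, 272, 156 and 159 CPM in wild type and 145, 242, 183 and 125 CPM in unrecombined libraries (-0.10 ± 0.232, edgeR adjusted p = 1), with both libraries numbered 2 the highest of their group. Gnai3 differed by 0.15 ± 0.134. Gnai1, another inhibitory subunit, had 21, 12.5, 10.5 and 14.1 against 23.2, 40.3, 22.1 and 22.3 CPM. Its groups did not overlap (0.89 ± 0.318, edgeR adjusted p = 1), and recombined libraries had a mean of 64.8 CPM. It was the single one of 12 subunits with an unadjusted p under 0.05, and without both libraries numbered 2 there was 0 of 12.

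Some loci that were higher in unrecombined libraries had a higher mean still in recombined ones. Crispld1, a secreted protein counted with AK038933, had 19.0, 15.2, 11.3 and 8.85 CPM in wild type, 54.2, 51.1, 26.6 and 53.9 CPM in unrecombined libraries, and recombined ones averaged 99.6 CPM (1.77 ± 0.353, adjusted p = 0.208 in edgeR and 0.00101 in DESeq2). Pla2g7, a secreted phospholipase counted with 2 transcript names, averaged 6.76, 20.4 and 44.7 CPM in the same order. For both loci the unrecombined and recombined groups overlapped. Recombined 1 had 41.9 CPM of Crispld1, and 25.5 CPM of Pla2g7 against 26.9 CPM in unrecombined 2. Col27a1, a fibrillar collagen counted with mKIAA1870 and named after its values were seen, had 6.47, 2.28, 5.98 and 6.59 CPM in wild type and 20.7, 23.3, 18.6 and 17.7 CPM in unrecombined libraries, a mean of 119 CPM in recombined ones, and groups that did not overlap. Wif1, a secreted Wnt inhibitor, had 9.84, 3.06, 4.41 and 7.74 CPM in wild type and 10.8, 36.3, 13.0 and 33.5 CPM in unrecombined libraries (1.90 ± 0.533, adjusted p = 0.608 in edgeR). Its recombined mean was 282 CPM, so the highest unrecombined library was far below the lowest recombined one at 85.8 CPM.

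Unrecombined 2 and 4 stood above 1 and 3 for several transcripts of this kind. Dsc3, a desmosomal cadherin of stratified and basal epithelium, had 1.20, 30.7, 1.69 and 54.2 CPM in unrecombined libraries 1 to 4, against 1.35 to 4.16 CPM in wild type and 22.5 to 127 CPM in recombined libraries. Library 3 was thus within the wild type range, and library 1 slightly below it. A set was formed, after its values were seen, of 13 loci whose lowest recombined library was at least 5 times the highest wild type library, with a recombined mean of at least 5 CPM. Among the unrecombined libraries, the highest value of a locus was in library 4 for 6 of the 13, in library 2 for 5, and in libraries 1 and 3 for 1 each. The median CPM of the 13 was 0.797, 2.37, 0.467 and 2.75 in unrecombined libraries 1 to 4, 0.287 to 0.658 in wild type and 8.48 to 43.5 in recombined libraries. The set favours loci with low wild type values, so nothing is read from the direction against wild type. Krt14 and Krt5, keratins of basal cells, were also higher in unrecombined 2 and 4 than in 1 and 3, with 20.2, 75.5, 35.7 and 87.0 CPM of Krt14 and 12.2, 79.6, 28.5 and 79.1 CPM of Krt5 in unrecombined libraries 1 to 4. Wild type libraries had 47.3 to 80.2 and 37.3 to 71.1 CPM, inside that range. Whether green cells in the red sort or red cells of another kind took part in these values was not tested.

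**Figure D4:**
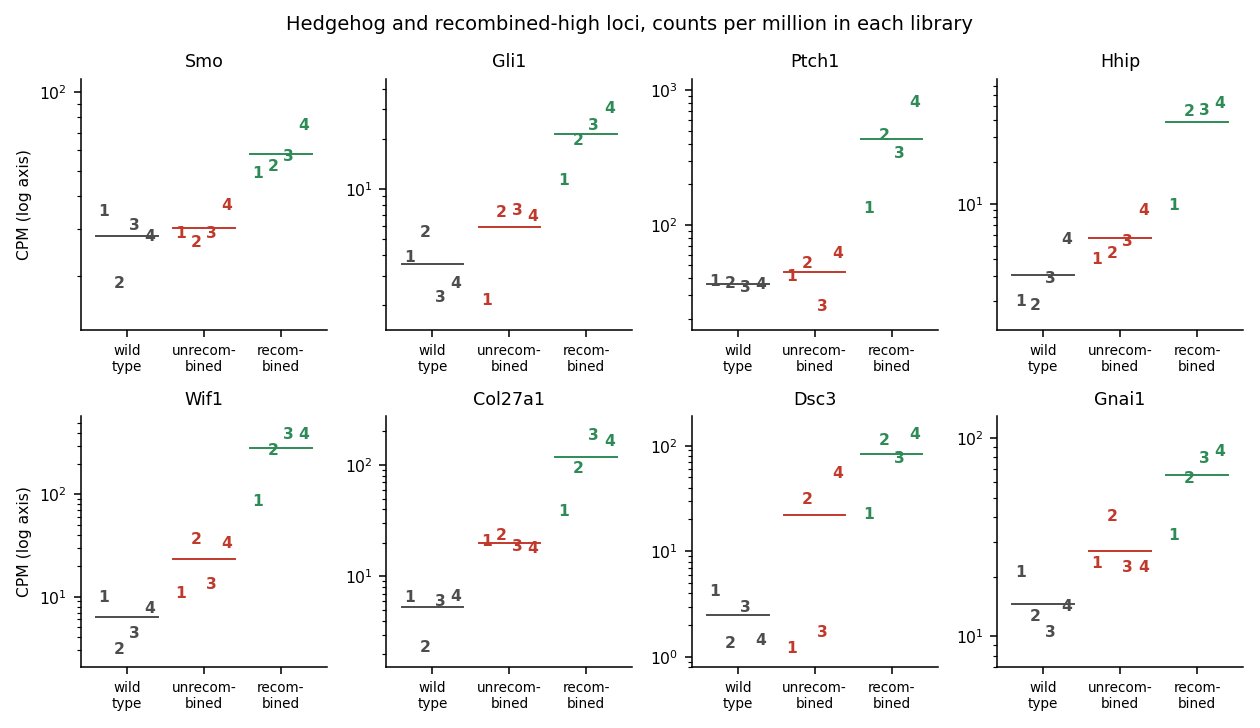
CPM (log axis) of 8 loci in each library; digits are library numbers and lines group means. Red groups overlap for Smo, Gli1, Ptch1, Hhip and Dsc3, and do not for Wif1, Col27a1 and Gnai1; among unrecombined libraries, Dsc3 is high in 2 and 4.

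Counts for the epithelial lists at an unadjusted p under 0.05 stand beside 2.68% of all loci higher and 1.18% lower. The 22 pan-epithelial genes had a median of -0.15, and 0 were higher and 1 lower at an unadjusted p under 0.05. Of 27 basal and myoepithelial genes 4 were higher and 0 lower (median -0.09). Those 4 were Vim, an intermediate filament that fibroblasts share (0.72), Egfr (0.52), Dsc3 (3.15) and Dsg3 (3.19), a desmosomal cadherin. Dsg3 had 21.2 CPM in unrecombined 4 against 0.359 to 1.17 CPM in the other 3, and its difference was 0.27 without that library. The count of 4 was 2 without unrecombined 1, 2 without unrecombined 4 and 3 without both libraries numbered 2. Trp63 (-0.05), the transcription factor of basal cells, and Krt5 (-0.04) had overlapping groups. Of 24 luminal hormone-sensing genes 1 was lower and 0 higher (median -0.40), with Stat5a, a mediator of prolactin signals, at -0.51 ± 0.201. Esr1, the estrogen receptor, had 58.1, 109, 70.0 and 106 CPM in wild type and 56.4, 44.4, 67.1 and 69.6 CPM in unrecombined libraries (-0.53 ± 0.258). The count moved with single libraries, to 0 of 24 lower without wild type 2, 2 without wild type 3, 4 without unrecombined 2 and 6 without wild type 1. Of 22 luminal progenitor genes 2 were higher, namely Spp1 and Trf, the iron carrier transferrin (1.02 ± 0.349). Of 23 milk secretion genes 3 were higher and 0 lower (median 0.59), namely Lpl, Plin2 (0.84), a lipid droplet protein, and Btn1a1 (0.89), a milk fat globule protein. That count was 1 without unrecombined 3 or without wild type 1, and 3 without both libraries numbered 2. The median was 0.19 without unrecombined 1. Without all 5 libraries that held salivary transcripts, 4 were higher and 3 lower. Casein beta (Csn2) was high in 1 library only, unrecombined 1, with 228 CPM against 0 to 1.43 CPM in the other 3 and 3.17 to 21.7 CPM in wild type.

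**Figure D5:**
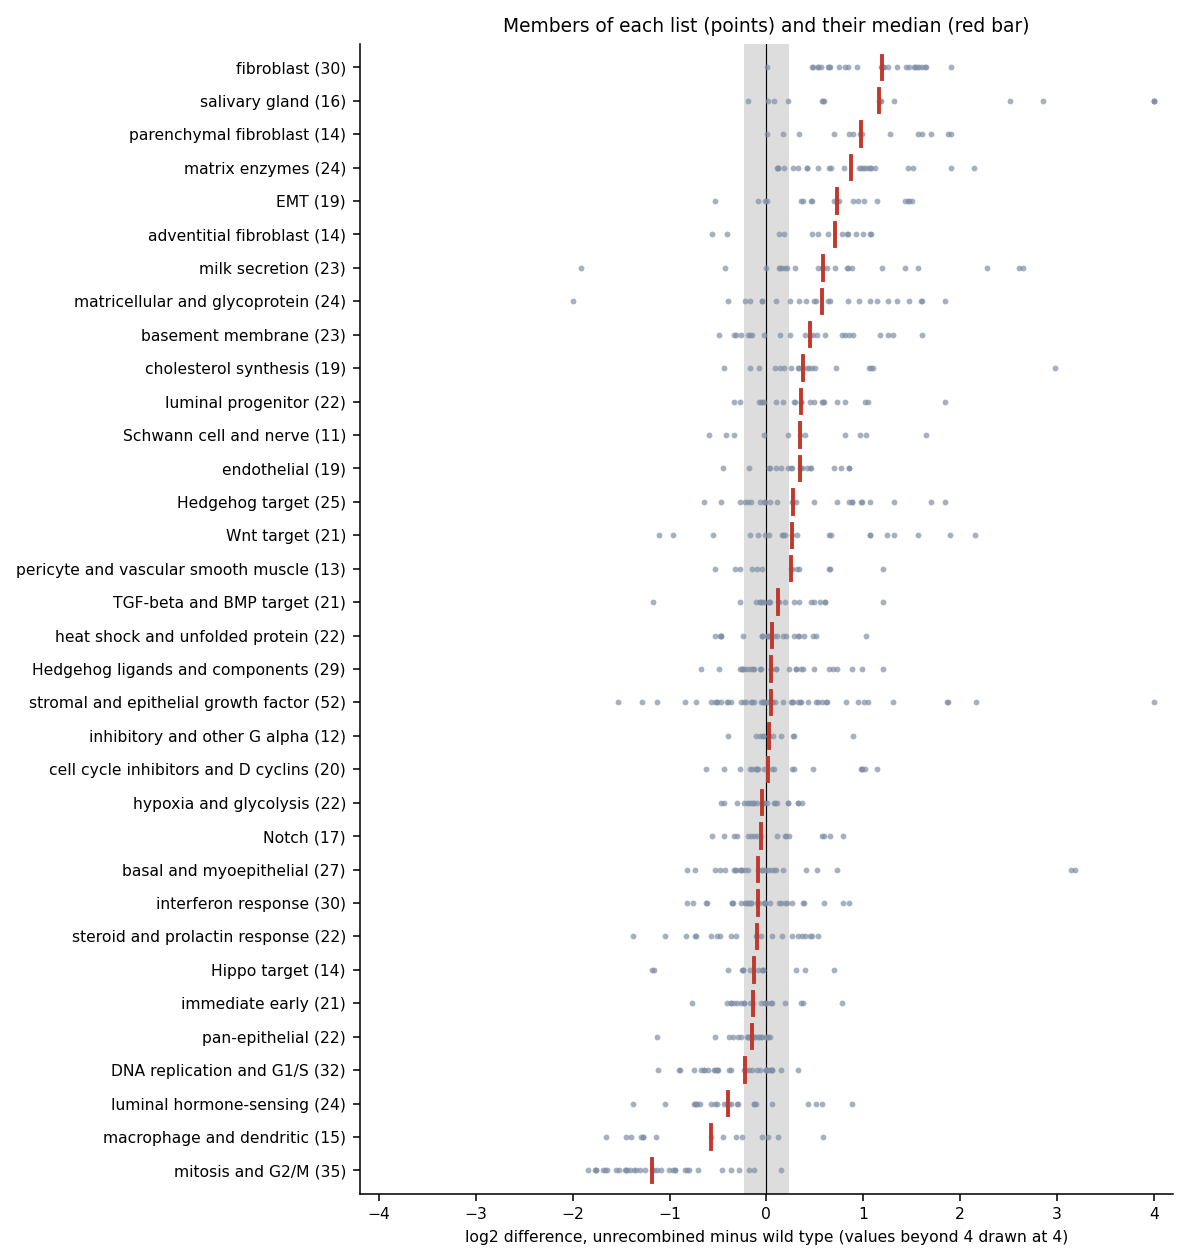
Log2 difference between unrecombined and wild type libraries of each tested list member (points; values beyond 4 drawn at 4) and the median of the list (red bar), for lists of at least 10 members, with their number in parentheses. The grey band is the interquartile range of all loci, -0.22 to 0.22; the fibroblast median of 1.19 is the highest and the mitosis median of -1.18 the lowest.

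Of 15 macrophage and dendritic genes 3 were lower and 0 higher at an unadjusted p under 0.05 (median -0.58), against 1.18% and 2.68% of all loci. Leaving out 1 library gave from 1 of 15 lower, without wild type 4 (median -0.44), to 5, without unrecombined 2, and 5 were lower without both libraries numbered 2. Wild type 4 had the highest Cd74, Ptprc and H2-Aa of the 8 libraries. Cd74, the class II invariant chain, had 6.78, 9.79, 10.2 and 25 CPM in wild type and 3.80, 6.44, 2.88 and 3.29 CPM in unrecombined libraries, with no overlap (-1.66 ± 0.520, edgeR adjusted p = 0.773). Ptprc, the pan-leukocyte antigen CD45, and the class II gene H2-Aa had -1.45 and -1.40 with overlap. Markers of macrophages proper, Cd68 (0.12), C1qb (-0.31) and Mrc1 (-0.26), overlapped, and C1qb and Mrc1 were under 1 CPM on average in both groups. Of 19 endothelial genes 0 passed in either direction (median 0.35).

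Proliferation genes had lower estimates that rested on single libraries. Mki67, the proliferation marker, had 504, 37.4, 16.9 and 168 CPM in wild type and 19.3, 19.0, 19.1 and 175 CPM in unrecombined libraries. Wild type 1 and 4 and unrecombined 4 were high and the other 5 low, so the groups overlapped (-1.64 ± 1.20, edgeR adjusted p = 1). Of 35 mitosis genes 34 had estimates below 0, with a median of -1.18, but only Ccnb2, a mitotic cyclin (-1.52 ± 0.655), had an unadjusted p under 0.05. Summed over the list, wild type libraries had 1880.5, 361, 282 and 808 CPM and unrecombined libraries 298, 268, 301 and 870 CPM. The median was -0.14 without wild type 1 and -2.42 without unrecombined 4. Without unrecombined 4, 20 of 35 were lower at an unadjusted p under 0.05, against 1.73% of all loci. Without wild type 3, 4 of 35 were lower, against 1.19% of all loci. Of 32 genes of DNA replication 2 were lower and 0 higher (median -0.22), and the median was 0.15 without wild type 1. Without both libraries numbered 2, 0 of 32 were lower.

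Among the loci with lower values in every unrecombined library, outside the lists, were Olfr1373 (-1.83 ± 0.522), an olfactory receptor gene, Slc24a3, an ion exchanger (-1.27 ± 0.374), St6galnac2, a sialyltransferase (-0.89 ± 0.293), and Abcc2, an export pump (-1.98 ± 0.719). Their edgeR adjusted p lay between 0.608 and 1. Ltbp2, a latent TGF-beta binding protein counted with D030025P21Rik, had 44.5, 36.3, 40.5 and 21.3 CPM in wild type and 18.8, 12.8, 10.5 and 21.1 CPM in unrecombined libraries, and 54.1 CPM on average in recombined ones (-1.17 ± 0.302, adjusted p = 0.46 in edgeR and 0.0465 in DESeq2). Of the Wnt target and inhibitor list, 5 of 21 were higher at an unadjusted p under 0.05 and 0 lower (median 0.26), against 2.68% and 1.18% of all loci. Those 5 were Sfrp1, Sfrp2, Wif1, Dkk2, another secreted inhibitor (2.15 ± 0.726), and Apcdd1 counted with 2 transcript names (1.25). Without both libraries numbered 2, 4 of 21 were higher. Axin2 (0.19) and Lgr5 (-0.09), common readouts of Wnt signalling, overlapped. Of 30 interferon response genes 0 passed in either direction (median -0.09).

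Library numbers in the labels start with 23 or 24. Numbers starting with 23 belong to 2 unrecombined and 3 wild type libraries, and numbers starting with 24 to 2 and 1. Within the 23 series the fibroblast median was 1.38. In the 24 series the single wild type library had 5169 CPM summed over fibroblast genes against 10492 and 8126 CPM in the 2 unrecombined ones, which is no test. EdgeR again called 0 loci within the 23 series and 0 with the series as a covariate, where 710 and 562 loci had an unadjusted p under 0.05.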

How the data were processed

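The data are bulk RNA-seq of 12 libraries, 4 per group. The authors deposited a table of read counts per entry, made with STAR and HTSeq 0.3.1 on mm9 per the submitters' processing notes; options and strand are not given in the sources used here, so joined entries and overlapping genes cannot be separated. Entries naming several loci were left out, since their reads are shared. The filter of edgeR was run by group over all 12 libraries, so enough counts in 1 group, also the recombined one, let a locus pass. Counts were scaled by TMM and fitted with the quasi-likelihood test of edgeR (edgeR 4.0.16, limma 3.58.1, R 4.3.3). Benjamini-Hochberg adjustment was over all 14039 loci. The recombined libraries shared the estimate of spread. DESeq2 1.42.0, limma-voom, other scalings, filters and left-out libraries were alternatives. The scripts were tested on simulated data. The members, lists and tests were chosen with earlier results of these data known.

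Named loci were the 14 of smallest p in each direction at a mean log2 CPM from 1 upward, and up to 4 of smallest p per list (10 for fibroblast genes, 6 for proliferation); others named were chosen after their values were seen, and a few genes are not reported here. Errors after ± are SE for log2 differences and SD for CPM. Same-numbered libraries were treated as unpaired, since their deviations correlated with r of 0.0025, 0.31, 0.16 and 0.16 and no label ties the numbers.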

Additional observations from a re-analysis of the deposited data

Results flagged for a closer look

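A library far from the other 3 of its group was flagged in 25 of the 276 groups of 4 that were tested. The cutoff flags about 1 in 20 groups of independent, normal values. CPM and sums that share genes need not be such values, so the count is not set against that rate. Many of the flags fall on libraries numbered 2. Salivary gland transcripts summed to 55600 CPM in unrecombined 2 (117 to 763 in the others) and to 21400 in wild type 2 (112 to 128). Heat shock genes summed to 17600 CPM in unrecombined 2 (5390 to 6730) and to 16800 in wild type 2 (4990 to 6100), and Hspa1a alone had 1760 and 2100 CPM there. Unrecombined 2 also stood out for Gnai1 (40.3 CPM), Fgf10 (15.9), Mrc1 (2) and Mmp14 (44.7, the lowest), and wild type 2 for Gnai2 (272), Mrc1 (1.39) and Vegfa (98.8, the lowest).

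Unrecombined 4 stood out for the summed mitosis genes (870 CPM against 268 to 301), Mki67 (175), Ccnb2 (8.39), Gas1 (81.5) and Dsg3 (21.2). Unrecombined 1 stood out for Lama2 (526 CPM), Col6a2 (70.2) and Csn2 (228), and unrecombined 3 for Spp1 (1600) and, as the lowest, Axin2 (1.47). Among wild type libraries, Col6a2 was high in library 4 (35.8 CPM) and Fap low in library 1 (5.45).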

How the results depend on the processing

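The edgeR count of 0 stayed at 0 under other scalings, other filters, the covariates for library series and salivary level, multi-locus entries kept and mitochondrial entries left out. Leaving out each library in turn gave 0 to 0 loci, with 426 to 628 at an unadjusted p under 0.05. Leaving out both libraries numbered 2, or all 5 with salivary transcripts, both chosen after the data were seen, gave 0 loci, with 350 and 414 at that p. DESeq2 called 78 loci, limma-voom 18, its weighted form 61, and edgeR on the 8 red libraries 8, or 7 with the filter of 12; the cause was not tested. With the replicate block, edgeR called 1 locus, and 18 on the 8 libraries. The numbers were not taken as pairs because 1 of the 4 same-numbered pairs had an r of 0.0025 and no label ties them, although the libraries numbered 2 share salivary and heat shock transcripts: 2 unrecombined and 3 wild type libraries correlated best with their own number. The fibroblast median ranged from 0.93 to 1.38 over 26 alternatives. Of 1066 list medians under alternatives 43 changed sign, and of 4697 values of named genes 43 changed sign. Under at least 1 alternative, 36 named genes passed the threshold. With 4 libraries a group and a median SE of 0.37, small differences were not detectable.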

Other observations

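Counts for several other lists at an unadjusted p under 0.05 stand beside 2.68% of all loci higher and 1.18% lower. Of 13 pericyte and smooth muscle genes 1 was higher, Pdgfrb, a receptor that fibroblasts share (1.21), and of 17 Notch genes 0 passed in either direction. Of 11 Schwann cell and nerve genes 1 was lower, the receptor Erbb3 (-0.59). Of 22 steroid and prolactin response genes 2 were lower, Stat5a (-0.51) and the kinase Sgk1 (-0.48). Of 22 hypoxia and glycolysis genes 1 was lower, Pdk1 (-0.47). Immediate early genes had 0 of 21 in either direction, with a median of -0.14.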
